A study of Mus musculus with 24 samples.

Results

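The collagen genes described here were the 42 mouse genes, of 20665 protein-coding genes on chromosomes 1 to 19 of mm10, whose symbols have the form Col, a number, a and a number. The rule uses the symbol and no measured value. Of these, 8 encode basement membrane collagens (Col4a1, Col4a2, Col4a3, Col4a4, Col8a1, Col8a2, Col15a1 and Col18a1) and 34 encode other collagens. A further 2 collagen genes on chromosome X were not counted. Histone marks had been mapped in mouse lung endothelial cells, purified by cell sorting, with ACT-seq, in which an antibody carries a Tn5 transposase to the modified histone so that nearby DNA is cut and tagged. The groups were knockout (KO) H3K4me1, KO H3K27ac, KO H3K4me3 and KO H3K27me3, and wild-type (WT) H3K4me1, WT H3K27ac, WT H3K4me3 and WT H3K27me3, with 3 samples each and 24 in all. The knockout is of Dnmt3a, which encodes an enzyme that places methyl groups on CpG sites. The sources used here do not state which promoter or Cre drove the deletion, whether mice were pooled, or their strain, age and sex. The processed data hold 1 peak list per group, with no height, depth or value per sample, so every difference below is a difference between 2 lists, and no test between KO and WT was possible.

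Collagens are proteins of the extracellular matrix in which chains wind into a triple helix. Type IV collagen forms the network of the basement membrane, the sheet on which endothelial cells sit, and endothelial cells make much of it themselves. Fibrillar collagens such as types I and III are mostly products of fibroblasts and mural cells and give the interstitium its tensile strength. H3K4me1 lies at enhancers and beside promoters, H3K27ac at active enhancers and promoters, H3K4me3 at promoters, and H3K27me3 is laid down by Polycomb repressive complexes over silent or poised genes.

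The 8 lists held 14984 to 81112 peaks each on chromosomes 1 to 19, 313065 in all, with median widths of 215 to 506 bp. KO lists were shorter than WT lists for H3K27ac, with 44484 peaks against 81112, and longer for H3K4me3, with 22724 against 14984, and for H3K27me3, with 31022 against 20918. Whether depth, the number of cells or peak calling moved with genotype is unknown. At gene ends, defined as 1000 bp to either side of an annotated end, 9 of 10 endothelial marker genes carried H3K27ac in KO and 9 in WT, and 8 in KO and 7 in WT carried H3K4me3, while over all genes H3K27ac was at an end of 47.7% in KO and 51.5% in WT and H3K4me3 of 52.3% in KO and 46.1% in WT. Of 10 leukocyte markers, 0 carried H3K27ac in either genotype. Fibroblasts and mural cells are the main makers of fibrillar collagen, and of 10 of their markers 1 carried H3K27ac in KO and 2 in WT, while 2 in KO and 0 in WT carried H3K4me3. Their pooled H3K27ac length was 6.8 bp per kb in KO and 11.17 in WT, and that of the endothelial markers 38.59 in KO and 47.71 in WT. Of 10 epithelial markers, H3K27ac was listed at 4 in KO and 3 in WT and H3K4me3 at 4 in KO and 1 in WT. Dnmt3a itself held 8 H3K4me3 peaks in KO and 5 in WT, the widest being 1426 bp in each, and no H3K27me3 peak in either genotype. The deleted exons are not stated, so these peaks do not check the genotype labels. In sorted bulk cells, fewer cells of a type and less of a mark per cell cannot be told apart.

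The sequences of 7 collagen promoters are shown because they span the range of mark states described below. They are the 250 bases before the annotated start, from RefSeq on GRCm38.p6 (mm10), 5′ to 3′, with every CpG (the letters CG, which read the same on both strands) in capitals, since DNMT3A methylates the cytosine of these pairs. Col4a1, at chr8:11312827-11313076 on the minus strand, and Col4a2, at chr8:11312555-11312804 on the plus strand, lie back to back under 1 H3K4me3 peak in both genotypes. Col15a1, at chr4:47207762-47208011 on the plus strand, and Col18a1, at chr10:77166531-77166780 on the minus strand, carried H3K4me3 in KO only. Col1a2, at chr6:4505368-4505617 on the plus strand, carried H3K27me3 in both genotypes and H3K4me3 in KO only. Col9a2, at chr4:121039316-121039565 on the plus strand, lay in the widest collagen H3K27me3 peak of WT. Col3a1, at chr1:45311288-45311537 on the plus strand, had no peak of any mark.
Col4a1: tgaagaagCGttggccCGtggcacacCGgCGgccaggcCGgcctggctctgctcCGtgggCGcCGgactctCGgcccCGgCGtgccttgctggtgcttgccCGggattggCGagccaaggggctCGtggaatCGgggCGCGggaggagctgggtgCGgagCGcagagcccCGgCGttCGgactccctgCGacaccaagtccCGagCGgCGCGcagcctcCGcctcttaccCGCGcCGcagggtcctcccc
Col4a2: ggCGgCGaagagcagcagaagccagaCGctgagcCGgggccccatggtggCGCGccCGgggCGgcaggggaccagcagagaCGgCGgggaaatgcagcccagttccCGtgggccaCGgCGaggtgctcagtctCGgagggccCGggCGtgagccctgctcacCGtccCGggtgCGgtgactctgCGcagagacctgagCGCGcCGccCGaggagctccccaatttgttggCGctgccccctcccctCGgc
Col15a1: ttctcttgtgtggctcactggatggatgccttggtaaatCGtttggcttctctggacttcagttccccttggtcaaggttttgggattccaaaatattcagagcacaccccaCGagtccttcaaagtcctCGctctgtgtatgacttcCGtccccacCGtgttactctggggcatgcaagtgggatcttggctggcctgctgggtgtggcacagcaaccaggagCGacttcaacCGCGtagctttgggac
Col18a1: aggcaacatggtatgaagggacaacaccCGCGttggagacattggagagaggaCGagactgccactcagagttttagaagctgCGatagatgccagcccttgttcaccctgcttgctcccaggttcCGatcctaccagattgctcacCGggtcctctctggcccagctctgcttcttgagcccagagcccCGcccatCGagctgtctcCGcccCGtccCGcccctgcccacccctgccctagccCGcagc
Col1a2: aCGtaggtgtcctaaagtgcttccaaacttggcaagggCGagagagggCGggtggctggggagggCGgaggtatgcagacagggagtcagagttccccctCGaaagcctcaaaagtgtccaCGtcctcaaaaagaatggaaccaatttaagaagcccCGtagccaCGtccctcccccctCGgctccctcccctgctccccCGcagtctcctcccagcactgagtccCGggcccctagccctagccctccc
Col9a2: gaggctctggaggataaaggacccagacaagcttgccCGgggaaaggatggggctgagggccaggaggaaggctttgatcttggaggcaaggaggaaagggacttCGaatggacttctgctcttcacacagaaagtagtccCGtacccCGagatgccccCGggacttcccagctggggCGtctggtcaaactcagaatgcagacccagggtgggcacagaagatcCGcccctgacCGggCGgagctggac
Col3a1: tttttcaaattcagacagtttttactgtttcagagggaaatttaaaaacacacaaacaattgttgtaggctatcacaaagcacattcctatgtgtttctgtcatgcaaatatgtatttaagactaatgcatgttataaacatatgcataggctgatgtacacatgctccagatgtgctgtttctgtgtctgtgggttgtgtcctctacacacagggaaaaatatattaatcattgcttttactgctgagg
The CpG counts were 31 in Col4a1, 26 in Col4a2, 8 in Col15a1, 12 in Col18a1, 11 in Col1a2, 9 in Col9a2 and 0 in Col3a1. Over all 20085 annotated promoters the median was 10, and 93.7% held at least 1 CpG.

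Over the 42 loci, each a gene with 5000 bp on either side, the 8 lists held 820 distinct peaks. H3K4me1 peaks were nearly equal in number, at 140 in KO and 141 in WT, a ratio of 0.993 (95% interval 0.78 to 1.264), against 0.986 over all protein-coding genes. H3K27ac was listed at fewer places in KO, with 107 peaks against 219 in WT, a ratio of 0.489 (0.384 to 0.618), while over all genes the ratio was 0.606. H3K4me3 gave 40 peaks in KO and 23 in WT, a ratio of 1.739 (1.016 to 3.043), against 1.395 over all genes. H3K27me3 gave 82 peaks in KO and 68 in WT, a ratio of 1.206 (0.864 to 1.688), against 1.375 over all genes. The intervals are exact binomial ones and cover counting error only. For each of the 4 marks the interval of the collagen ratio included the all-gene ratio. With the same number of peaks taken from each list by width, the H3K4me3 order turned, with 16 in KO and 23 in WT, a ratio of 0.696. For this mark and H3K27me3, that setting removed narrow peaks from the longer KO list only. H3K27me3 turned too, with 55 in KO and 68 in WT, a ratio of 0.809. With peaks of at least 200 bp in both lists neither order turned, at 1.1 for H3K4me3 and 1.179 for H3K27me3. With peaks of at least 500 bp the ratios were 1.111 and 1.895.

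In covered length, KO exceeded WT for H3K4me1, with 74627 bp in KO and 60263 bp in WT, and for H3K27me3, with 67978 bp in KO and 36910 bp in WT. The KO over WT ratio of covered length was 1.238 for H3K4me1 and 1.842 for H3K27me3 at collagen genes, and 1.186 and 1.784 over all genes. H3K27ac covered 41024 bp in KO and 65521 bp in WT, a ratio of 0.626 against 0.775 over all genes, and H3K4me3 covered 17271 bp in KO and 10616 bp in WT, a ratio of 1.627 against 1.407.

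**Figure D1:**
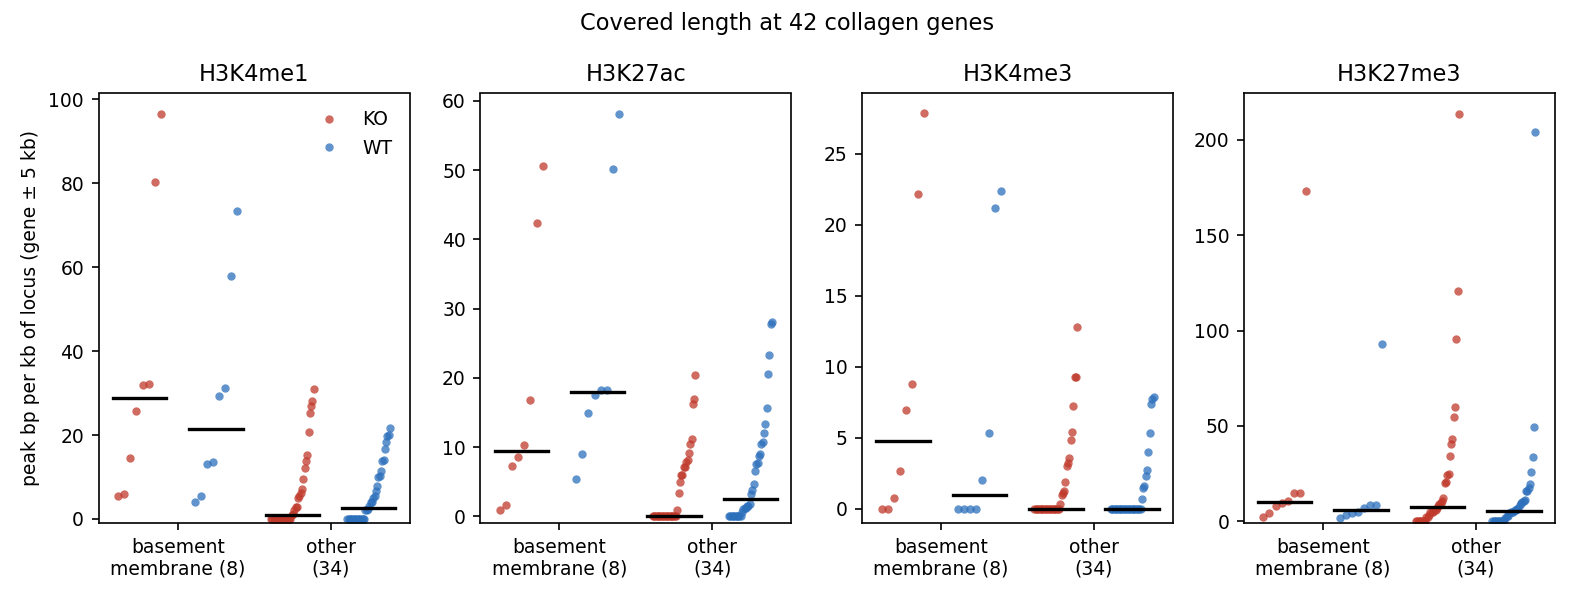
Peak length in bp per kb of locus for each of 42 collagen genes, by mark, class and genotype; each point is a gene, red for KO and blue for WT, and black lines are medians. Axes differ between marks. The median of the 8 basement membrane collagens lay above that of the 34 other collagens for H3K4me1, at 28.86 against 1.02 in KO and 21.38 against 2.71 in WT, and the highest H3K4me1 point is Col4a2, at 96.53 in KO and 73.26 in WT.

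Basement membrane collagens had higher median lengths of the active marks H3K4me1 and H3K27ac than the 34 other collagens pooled, in both genotypes. Their median H3K4me1 length was 28.86 bp per kb in KO and 21.38 in WT, against 1.02 in KO and 2.71 in WT for the other collagens. The H3K4me1 medians over all protein-coding genes were 7.33 in KO and 9.51 in WT. Collagen loci were longer, with a median of 132.5 kb for basement membrane genes and 101.75 kb for the others, against 27.5 kb for all genes. A peak of a given width therefore adds fewer bp per kb at a long locus, which limits each comparison with all genes here. For H3K27ac the medians of the basement membrane genes were 9.44 in KO and 17.89 in WT, those of the other collagens 0.0 in KO and 2.43 in WT, and those of all genes 10.73 in KO and 15.46 in WT. H3K4me3 medians were 4.82 in KO and 1.01 in WT for basement membrane collagens, below the all-gene medians of 10.94 in KO and 5.23 in WT, and 0.0 in both genotypes for the others. For H3K27me3 the medians were closer, at 10.06 in KO and 5.95 in WT for basement membrane genes and 7.37 in KO and 5.3 in WT for the others. All 8 basement membrane collagens held H3K4me1, H3K27ac and H3K27me3 peaks in both genotypes. Of the 34 others, 18 in KO and 20 in WT held H3K4me1, 15 and 24 H3K27ac, and 27 and 25 H3K27me3. The 34 were not alike, and their 4 transmembrane collagens all held H3K4me1 and H3K27ac in both genotypes. The transmembrane medians were 21.0 in KO and 13.85 in WT for H3K4me1, and 8.11 in KO and 11.36 in WT for H3K27ac. Each lay below the median of the 8 basement membrane genes. Of all 20665 genes, 11875 in KO and 12986 in WT held H3K4me1. H3K27ac was held by 12772 in KO and 14338 in WT, and H3K27me3 by 11367 in KO and 10254 in WT. A longer locus has more room for a peak, which limits these counts of genes with any peak. The median transmembrane locus was 227.6 kb long. The part of locus length in the counts was not tested.

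Col4a1 and Col4a2, neighbours at chromosome 8 from 11198423 to 11312889 and from 11312805 to 11449287, encode the chains of the common type IV network. Without this pair, the H3K4me1 medians of the remaining 6 basement membrane genes stayed above those of the other collagens, at 20.16 in KO and 13.27 in WT, and so did the H3K27ac medians, at 7.87 in KO and 16.25 in WT. The class difference in H3K4me1 was then 19.13 in KO, against 27.83 with the pair, and 10.56 in WT, against 18.67 with it, and that in H3K27ac 7.87 in KO, against 9.44, and 13.81 in WT, against 15.45. The 4 transmembrane collagens alone had higher H3K4me1 medians than these 6 genes, at 21.0 in KO and 13.85 in WT. Their H3K27ac median was also higher in KO, at 8.11, but lower in WT, at 11.36. The H3K4me3 medians without the pair were 1.71 in KO and 0.0 in WT. The stretch around the pair, 260.9 kb long, held 66.1% of the class's H3K4me1 length in KO and 64.2% in WT. H3K4me1 was listed at 38 peaks and 22448 bp in KO and 32 peaks and 16861 bp in WT. Of these, 28 KO and 29 WT peaks overlapped the other genotype, as did 75.24% of KO and 76.35% of WT peaks over all genes. H3K27ac was listed at 27 peaks and 11180 bp in KO and 34 peaks and 12730 bp in WT. By H3K4me1 length per kb, Col4a1 exceeded 95.6% of all genes in KO and 93.1% in WT, and Col4a2 exceeded 97.5% in KO and 96.6% in WT.

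The start shared by Col4a1 and Col4a2 lay under an H3K4me3 peak from 11311835 to 11313451 in KO (1617 bp) and from 11311932 to 11313267 in WT (1336 bp), also listed for H3K27ac in both genotypes, and no end of either gene carried H3K27me3. The widest H3K4me1 peak at any collagen, 2132 bp, lay inside Col4a1 from 11233542 to 11235673 in KO. Away from the start, H3K4me3 lay partly at different places. It was listed in KO and not in WT at 11279101 to 11279658 (558 bp), 11297372 to 11297762 (391 bp) and 11308557 to 11308990 (434 bp) inside Col4a1, where both genotypes had H3K4me1 and H3K27ac. The 558 bp peak also met H3K27me3 of both genotypes, and the H3K4me1 region at the 434 bp peak met H3K27me3 of WT. WT-only H3K4me3 peaks included 11347580 to 11347985 (406 bp) inside Col4a2, where both genotypes had H3K4me1, H3K27ac and H3K27me3. In all, 5 of 9 KO H3K4me3 peaks were KO-only and 5 of 9 WT peaks were WT-only in this stretch. Over all genes, 7635 of 18610 KO peaks were KO-only and 1815 of 13339 WT peaks were WT-only.

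**Figure D2:**
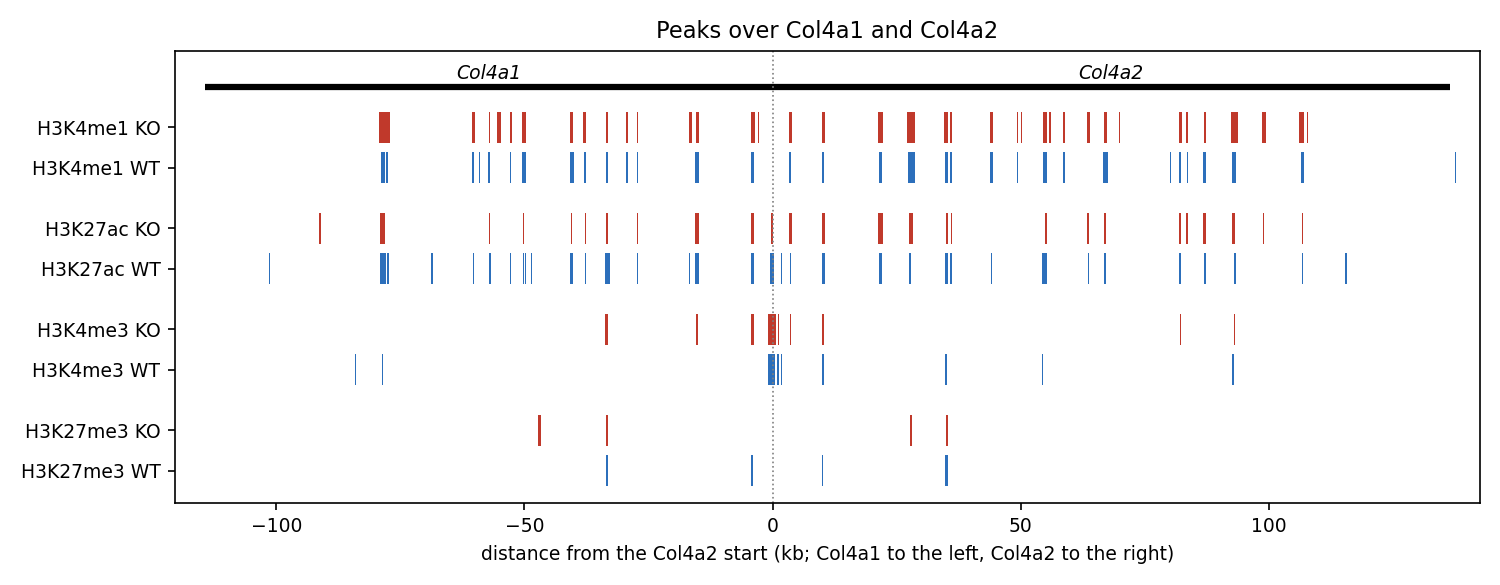
Peaks over Col4a1 and Col4a2 by distance in kb from the Col4a2 start (dotted line), with KO in red above WT in blue for each mark; bars narrower than 250 bp are drawn at that width, and black lines are the genes. H3K4me1 lay along both genes, with 28 of 38 KO peaks shared, near the 75.24% over all genes. For H3K4me3, 5 of 9 peaks of each genotype met none of the other. Over all genes this held for 7635 of 18610 KO and 1815 of 13339 WT H3K4me3 peaks.

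The other type IV pair, Col4a3 and Col4a4 on chromosome 1, from 82586921 to 82722059 and from 82448419 to 82587034, encodes chains of the basement membranes of lung alveoli and kidney glomeruli. Their overlapping starts carried H3K27me3 in both genotypes, 818 bp wide in KO and 462 bp in WT. A KO-only H3K4me3 peak of 112 bp from 82587134 to 82587245 and a WT-only H3K27ac peak of 361 bp from 82586884 to 82587244 lay on it. Both genes therefore counted as H3K4me3 in KO only and H3K27ac in WT only from the same 2 narrow peaks. The widest H3K4me3 peak in the Col4a3 locus, 798 bp in KO and 781 bp in WT, lay in its flank at an end of Mff, a mitochondrial fission gene.

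Col15a1 and Col18a1 encode the multiplexins, basement membrane collagens whose cleaved ends act on vessels, endostatin being that of Col18a1. Col15a1, at chromosome 4 from 47207655 to 47313167, held 4 H3K4me3 peaks in KO and 0 in WT. Of these, 3 lay near the start, from 47207900 to 47208064 (165 bp), 47208199 to 47208355 (157 bp) and 47208658 to 47208970 (313 bp), and overlapped no other mark in either genotype. The fourth, 170 bp at 47251726 to 47251895, lay on H3K4me1 and H3K27ac peaks of both genotypes. Col15a1 H3K4me1 was similar, with 8 peaks and 3726 bp in KO and 9 peaks and 3616 bp in WT, and H3K27ac was 986 bp in KO and 2028 bp in WT. Col18a1, at chromosome 10 from 77052178 to 77166530, carried at its start H3K4me1, H3K27ac and H3K27me3 in both genotypes and a KO-only H3K4me3 peak of 208 bp. Its H3K27me3 peak was 1162 bp in KO and 441 bp in WT, its H3K4me1 length 3198 bp in KO and 1676 bp in WT, and its H3K27ac length 895 bp in KO and 2266 bp in WT.

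Type VIII collagen, made of Col8a1 and Col8a2 chains, forms short-chain networks in vessel walls and in the corneal endothelium. Col8a2, at chromosome 4 from 126286794 to 126314330, was the basement membrane gene with the most H3K27me3, 6 peaks and 6512 bp in KO and 4 peaks and 3490 bp in WT, or 173.48 bp per kb in KO and 92.97 in WT, above 97.5% of all genes in KO and 97.3% in WT. It carried neither H3K4me3 nor H3K27ac at a gene end. Col8a1, at chromosome 16 from 57624256 to 57754737, had an H3K27me3 peak of 1773 bp at its upper end in KO and 351 bp in WT. Its H3K27ac was 1 peak of 118 bp in KO and 9 peaks of 2098 bp in all in WT.

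**Figure D3:**
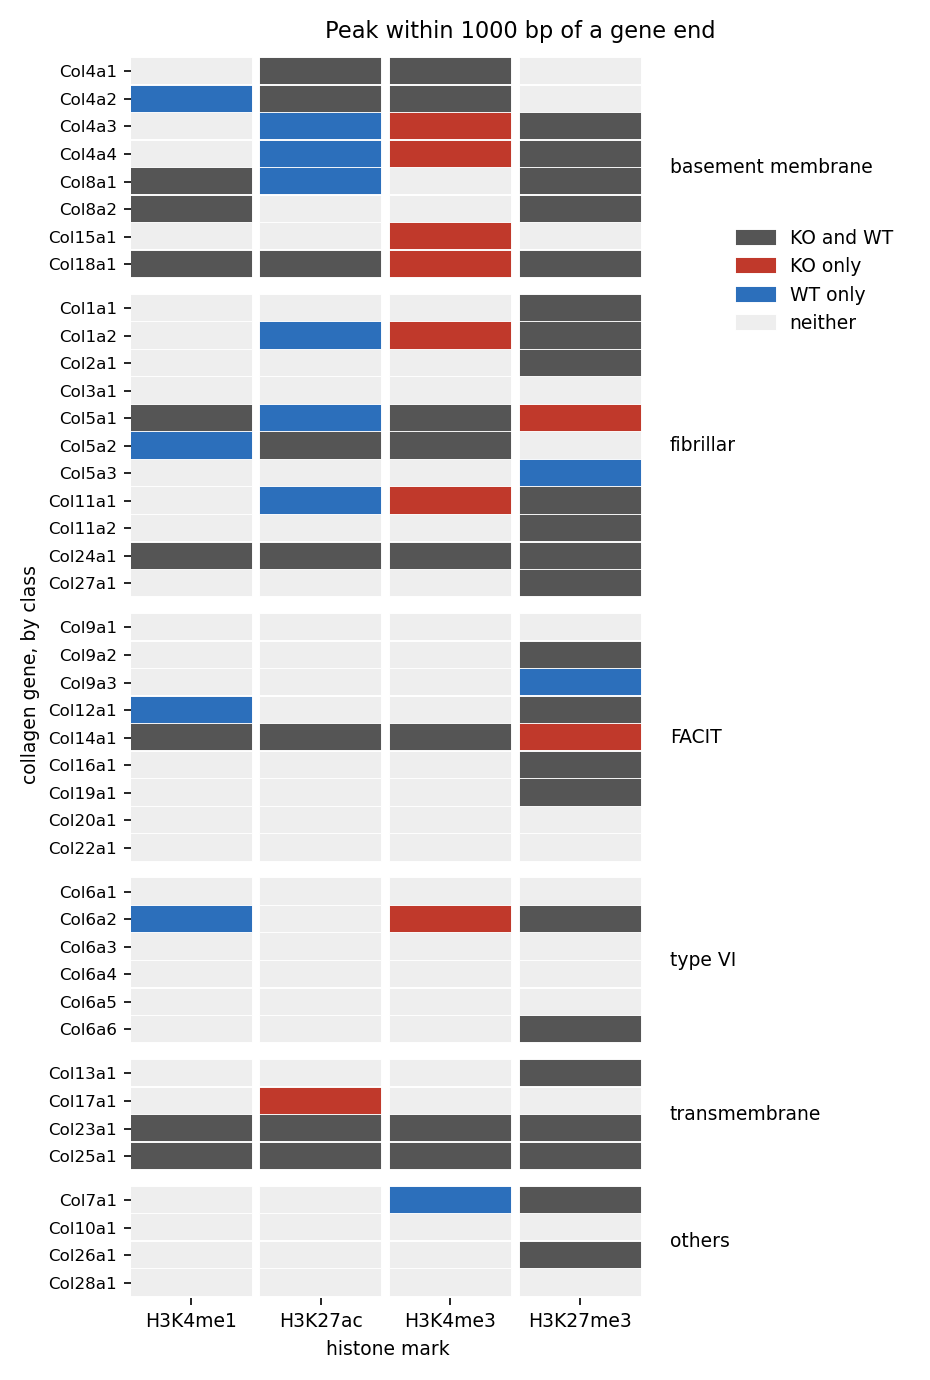
Marks within 1000 bp of a gene end for the 42 collagen genes, grouped by class, with H3K4me1, H3K27ac, H3K4me3 and H3K27me3 from left to right; dark grey marks KO and WT, red KO only, blue WT only and light grey neither. H3K27me3 filled 23 genes in both genotypes, and 7 genes were red for H3K4me3 against 1 blue.

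At gene ends, H3K27me3 was the commonest mark of the collagen genes. It was listed in both genotypes at 23 of 42 genes (54.8%), against 34.4% of all protein-coding genes, in KO only at Col5a1 and Col14a1 (all genes 8.28%), and in WT only at Col5a3 and Col9a3 (all genes 3.43%). H3K4me3 in both genotypes was listed at 8 of 42, against 45.4% of all genes, and H3K27ac in both likewise at 8, against 45.7%. H3K4me1 was listed in both at 8 genes (all genes 37.1%), in KO only at 0 (all genes 2.35%) and in WT only at 4, Col4a2, Col5a2, Col6a2 and Col12a1 (all genes 9.52%). H3K27me3 without H3K4me3 or H3K27ac was found at 14 collagens in KO (33.3%) and 15 in WT (35.7%), against 2276 of 20665 genes in KO and 2043 in WT. Both counts include Col27a1, which had H3K4me3 in both genotypes more than 1000 bp inside its annotated end.

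H3K4me3 was listed in KO only at 7 of 42 genes (16.7%), against 6.9% of all genes, and in WT only at Col7a1 (all genes 0.682%). The 7 were Col4a3, Col4a4, Col15a1, Col18a1, Col1a2, Col11a1 and Col6a2, of which Col4a3 and Col4a4 share 1 peak. These were narrow peaks, 104 to 558 bp with a median of 172 bp over the 28 KO-only H3K4me3 peaks of collagen loci, against a median of 1009.5 bp for the 12 shared KO peaks. With peaks of at least 200 bp the KO-only count was 3 genes, and with the same number of peaks taken from each list by width it was 0 in KO only and 2 in WT only. Of the 28 KO-only peaks, 14 (50.0%) lay on H3K27me3 of KO, against 23.95% of all KO-only H3K4me3 peaks, 15 lay on H3K4me1 of KO (53.57%, against 48.98%) and 10 lay at a gene end. Of 21 collagens with H3K27me3 but no H3K4me3 at the ends in WT, 6 carried both marks in KO (28.6%), and 24.4% of all genes in that state did so. Col27a1 was among the 21, with its H3K4me3 further than 1000 bp from an annotated end. KO-only H3K4me3 was also listed at cell type markers, at 1 of 10 endothelial (Erg) and 2 of 10 fibroblast and mural markers (Acta2, Myh11). It was listed at 3 of 10 epithelial and 1 of 10 leukocyte markers as well. WT-only H3K4me3 was at 0 of 10 in each of these marker lists. The part of other cell types in the collagen count was not tested.

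H3K27ac was listed in KO only at Col17a1 (all genes 2.01%), by a 161 bp peak within 1000 bp of an end of Slk, a kinase gene next to it. It was listed in WT only at 6 genes, Col4a3, Col4a4, Col8a1, Col1a2, Col5a1 and Col11a1 (14.3%, against 5.88%). By covered length over the whole locus, 20 of the 34 collagens with any H3K27ac had at least 2-fold more in WT (58.8%), against 22.7% of all genes with a peak, and 2 at least 2-fold more in KO (3.75% of all genes). A gene with 0 bp in 1 genotype was included. Of the 34, 23 held H3K27ac in KO and 32 in WT. Of the 14642 genes with H3K27ac over all genes, 12772 held it in KO and 14338 in WT. WT H3K27ac peaks at collagen loci were shared with KO in 32.42% of cases (71 of 219, exact 95% interval 26.27 to 39.05), against 43.62% over all genes, and the 148 WT-only peaks had a median width of 170 bp. The WT H3K27ac list was the longest of the 8, and once lists were trimmed to the same number of peaks by width the collagen loci held 107 KO and 117 WT peaks, a ratio of 0.915.

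Covered length was compared in the same way for the other marks. H3K4me3 was at least 2-fold longer in KO at 11 of the 22 collagens with a peak (50.0%, all genes 26.4%) and in WT at 2 (9.09%, all genes 3.06%). Of the 22, 20 held H3K4me3 in KO and 14 in WT. Those with 0 bp in WT were Col1a1, Col1a2, Col2a1, Col4a4, Col11a1, Col12a1, Col15a1 and Col22a1, with 26 to 805 bp in KO. Of the 13382 genes with H3K4me3 over all genes, 13095 held it in KO and 11618 in WT. H3K27me3 was at least 2-fold longer in KO at 15 of 37 (40.5%, all genes 37.3%) and in WT at 3 (8.11%, all genes 9.46%). H3K4me1 was at least 2-fold longer in KO at 2 of 29 (6.9%, all genes 9.1%) and in WT at 6 (20.7%, all genes 17.3%). None of the 8 basement membrane genes was among these for H3K4me1, in either direction.

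Of the 11 fibrillar collagens, 8 in KO and 8 in WT carried H3K27me3 at an end (72.7% each), against 42.7% of all genes in KO and 37.9% in WT. In each genotype 5 of 8 basement membrane and 3 of 4 transmembrane collagens carried it too. The median H3K4me1 length of the fibrillar genes was 2.06 bp per kb in KO and 2.2 in WT, against 7.33 in KO and 9.51 in WT over all genes. Their median locus was 55.1 kb long, against 27.5 kb over all genes. Col1a1 and Col1a2, the chains of type I collagen, both carried H3K27me3 at a gene end in both genotypes. At Col1a2, chromosome 6 from 4505618 to 4541543, this peak was 2154 bp in KO (4504265 to 4506418) and 1546 bp in WT (4504485 to 4506030), with a 138 bp H3K4me3 peak in KO only and 3 H3K27ac peaks of 611 bp in all in WT only. Col3a1, the homotrimer that accompanies type I in vessels and lung, had no peak in any list, the only collagen without one. Its genomic neighbour Col5a2, a chain of the type V collagen that nucleates fibrils, on chromosome 1 from 45374331 to 45503282, had 10 H3K27ac peaks of 2826 bp in all in KO and 11 of 3228 bp in WT. It carried an H3K4me3 peak of 1664 bp in KO and peaks of 333 and 694 bp in WT at its upper end, and no H3K27me3.

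Col5a1, the partner chain of Col5a2, had an H3K4me3 peak at its start of 1510 bp in KO and 379 bp in WT. The WT-only H3K27ac peak there was 1038 bp, the widest WT-only H3K27ac peak at a collagen, and H3K27me3 was listed in KO only, at 2 peaks of 231 and 161 bp. Col5a3 was the reverse for H3K27me3, with an 884 bp peak in WT (chromosome 9, from 20814427 to 20815310) and none in KO. Col11a1, a cartilage fibril chain, had H3K27me3 at its start, 2476 bp in KO and 1910 bp in WT, and on it H3K4me3 of 221 and 163 bp in KO only and H3K27ac of 247 bp in WT only. At Col24a1 both genotypes carried H3K4me3 at the lower end but at places that did not overlap, 105 and 198 bp in KO and 189 bp in WT. Its H3K27ac covered 1922 bp in KO and 4212 bp in WT. Col27a1 had H3K27me3 at its lower end, 2651 bp in 1 peak in KO and at most 630 bp in WT, and an H3K4me3 peak of 1215 bp in KO and 528 bp in WT more than 1000 bp inside the annotated gene, of which the KO peak overlapped the promoter at the RefSeq start and the WT peak did not.

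H3K27me3 length varied widely among collagens known from cartilage, from 0 bp in KO and 0 bp in WT at Col10a1 to 5505 bp in KO and 5254 bp in WT at Col9a2. It was short at Col9a1, with 403 bp in KO and 244 bp in WT, and at Col9a3, with 157 bp in KO and 167 bp in WT. Col2a1, the main cartilage collagen, held 4716 bp in KO and 1935 bp in WT, with a peak at its upper end of 2187 bp in KO and 1358 bp in WT. Col11a2, which pairs with Col11a1, held 3612 bp in KO and 424 bp in WT, the largest KO minus WT difference in H3K27me3 length of any collagen (3188 bp), though the end concerned is also an end of Rxrb. Col9a2, a chain of the type IX collagen that decorates cartilage fibrils, had peaks of 3290 and 2215 bp in KO and of 3305 and 1949 bp in WT, and exceeded 98.5% of genes in KO and 99.7% in WT by H3K27me3 length per kb. This gene had no other mark.

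Among the 9 FACIT genes, whose products bind to the surface of fibrils, Col12a1 had the widest H3K27me3 peak of all collagens, 4258 bp in KO (chromosome 9 from 79717070 to 79721327), while the widest of the 3 WT peaks overlapping it was 1052 bp. Col14a1 carried H3K4me1, H3K27ac and H3K4me3 at its lower end in both genotypes. Its H3K4me1 covered 6293 bp in KO and 4851 bp in WT, and its H3K27ac 2321 bp at 5 peaks in KO and 6193 bp at 19 peaks in WT, the largest KO minus WT difference in H3K27ac of any collagen in the direction of WT (-3872 bp). A KO-only H3K27me3 peak of 1261 bp from 55307696 to 55308956 lay over its H3K4me3, the widest KO-only H3K27me3 peak at a collagen. Col22a1, of tissue junctions, held 1831 bp of H3K27ac in KO and 3832 bp in WT, and no mark at an end. All 6 FACIT genes with any H3K27ac had at least 2-fold more of its length in WT, as had 22.7% of all genes with a peak. For 3 of them this was short H3K27ac in WT and 0 bp in KO, 379 bp at Col19a1, 124 bp at Col9a1 and 108 bp at Col9a3. Col9a1 held H3K4me1 of 418 bp in KO and 1205 bp in WT, and Col20a1 a single H3K27me3 peak, 258 bp in WT. The Col9a3 H3K27me3 peaks, 157 bp in KO and 167 bp in WT, lay on either side of the 1000 bp limit, which alone made the gene WT-only.

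The 6 type VI genes, whose chains form beaded filaments around cells, had short active marks, with H3K4me1 of 128 bp in KO and 1160 bp in WT and H3K27ac of 999 bp in KO and 1042 bp in WT over all 6 loci. Col6a1 and Col6a3 held short H3K27me3 peaks in KO, 266 bp and 910 bp in all, and 0 bp in WT. Col6a3 had in addition a WT-only H3K27ac peak of 135 bp. Col6a2 carried H3K27me3 in both genotypes and a KO-only H3K4me3 peak of 205 bp at its upper end. At these loci 2 of 13 KO H3K27me3 peaks met a WT peak (15.38%, exact interval 1.921 to 45.45), against 51.22% over all collagens and 56.24% over all genes. Of the WT peaks there, 2 of 8 met a KO peak, against 80.78% over all genes. Their median widths were 195 bp in KO and 336.5 bp in WT, against 464 bp in KO and 391 bp in WT over all genes.

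Transmembrane collagens, which stay in the plasma membrane, included 2 genes with all 4 marks at an end in both genotypes, Col23a1 and Col25a1. The fibrillar gene Col24a1 carried all 4 as well, and the share of all genes in this state was not computed. Part of the marks of Col23a1 lay at an end of Phykpl, and at its own start H3K4me3 was 766 bp in KO and 674 bp in WT. Col25a1, 429.5 kb long with its flanks, held 19 H3K4me1 peaks in each genotype, 13292 bp in KO and 8486 bp in WT, the largest H3K4me1 length difference among collagens, and H3K4me3 at its start of 1394 bp in KO and 646 bp in WT. Col13a1 held an H3K27me3 peak of 2151 bp at its upper end in KO, and 3115 bp in all in KO against 1282 bp in WT, together with H3K4me1 of 4046 bp in KO and 3005 bp in WT. Col28a1, among the remaining collagens, had no H3K27me3 or H3K4me3 peak but a wide region of H3K4me1 and H3K27ac inside the gene, 1921 and 1741 bp in KO and 1447 and 1702 bp in WT. Col7a1, the anchoring fibril collagen, had H3K27me3 at its lower end of 2253 bp in KO and 730 bp in WT, with a 326 bp H3K4me3 peak in WT only. Col26a1 held 3747 bp of H3K27me3 in KO and 1013 bp in WT. Col10a1, of hypertrophic cartilage, had 1 peak in all, a 134 bp H3K27ac peak in KO.

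**Figure D4:**
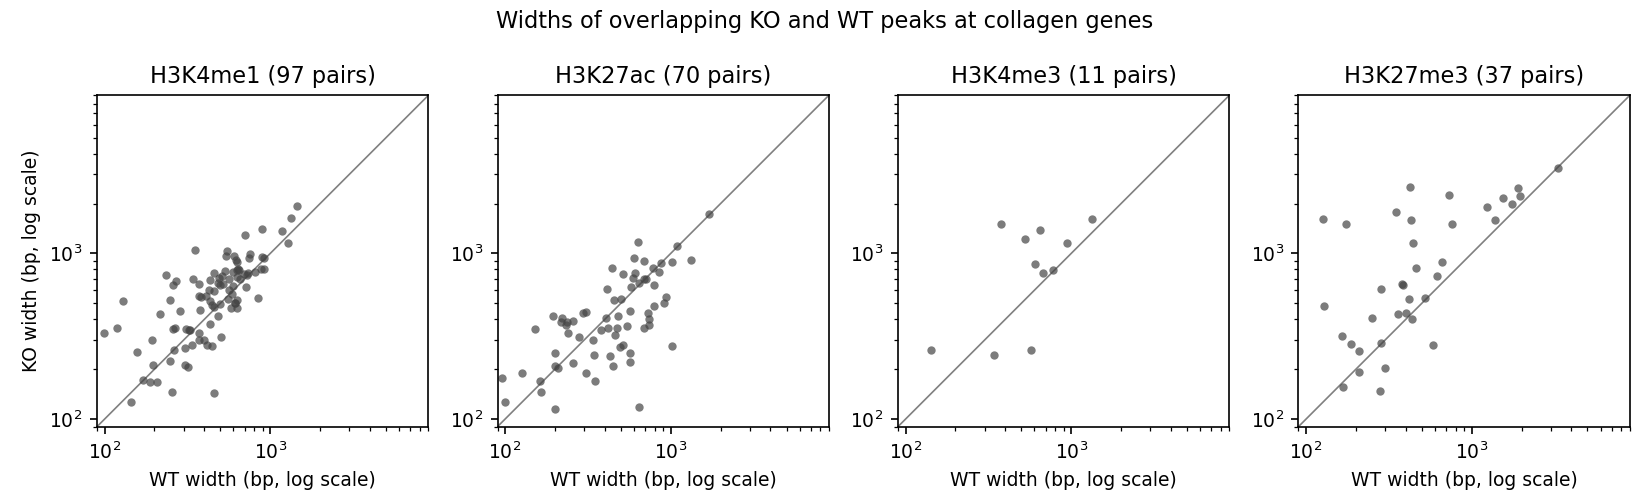
Widths in bp of overlapping KO and WT peaks at collagen loci on log scales, WT on the horizontal and KO on the vertical axis, with the line of equality. H3K27me3 pairs lay mostly above the line, 30 of 37, and H3K27ac pairs lay about it, 34 of 70 above.

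Where 1 KO peak and 1 WT peak overlapped only each other, H3K27me3 was wider in KO in 30 of 37 pairs, with a median KO over WT width of 1.353 (quartiles 1.095 to 1.975), against 1.226 over all 14150 pairs. H3K4me3 was wider in KO in 9 of 11 pairs, median 1.23 against 1.177 over all pairs. H3K4me1 was wider in KO in 64 of 97 pairs, median 1.148 against 1.127, and H3K27ac in 34 of 70, median 0.99 against 0.953.

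H3K4me1 regions more than 1000 bp from every gene end, the enhancer-type regions, numbered 154 at collagen loci, 64 of them at basement membrane genes. H3K27ac accompanied H3K4me1 in both genotypes at 51 of 154 (33.12%, exact interval 25.75 to 41.15), against 35.2% of all 49071 such regions. A region was primed, with H3K4me1 and no H3K27ac, in KO and active in WT in 8 cases (5.195%, against 6.472%) and active in KO and primed in WT in 7 (4.545%, against 5.488%). H3K27ac was KO-only at 10 regions and WT-only at 15 (6.494% and 9.74%, against 8.68% and 11.6% of all regions). H3K4me1 was KO-only at 35 and WT-only at 27 (22.73% and 17.53%, against 22.1% and 18.4%). H3K4me3 was listed in KO only at 13 regions (8.442%, against 10.1%), in WT only at 3 (1.948%, against 0.866%) and in both at 2 (1.299%, against 5.781%). The 3 WT-only regions lay inside Col4a1 and Col4a2. The collagen intervals included the all-region value in each of these states except H3K4me3 in both.

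Collagen promoters without marks held few CpG, as did unmarked promoters over all genes. RefSeq promoters were matched for 33 of the 42 genes. Of the 33, 9 had no mark of either genotype over the 250 bases before the start, and these held 0 to 5 CpG, median 2. Promoters with H3K27me3 in KO or WT, 21, held a median of 12 (3 to 28), and 10 with H3K4me3 a median of 16.5 (7 to 31). Over all promoters the medians were 2 without any mark, 18 with H3K27me3 and 18 with H3K4me3. At 10 or more CpG lay 18 of 33 collagen promoters (54.5%), against 51.3% of all, with 6 of 7 basement membrane promoters and 12 of 26 others. The second listed start of Col9a1 held 0 CpG and carried H3K27me3 in KO.

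**Figure D5:**
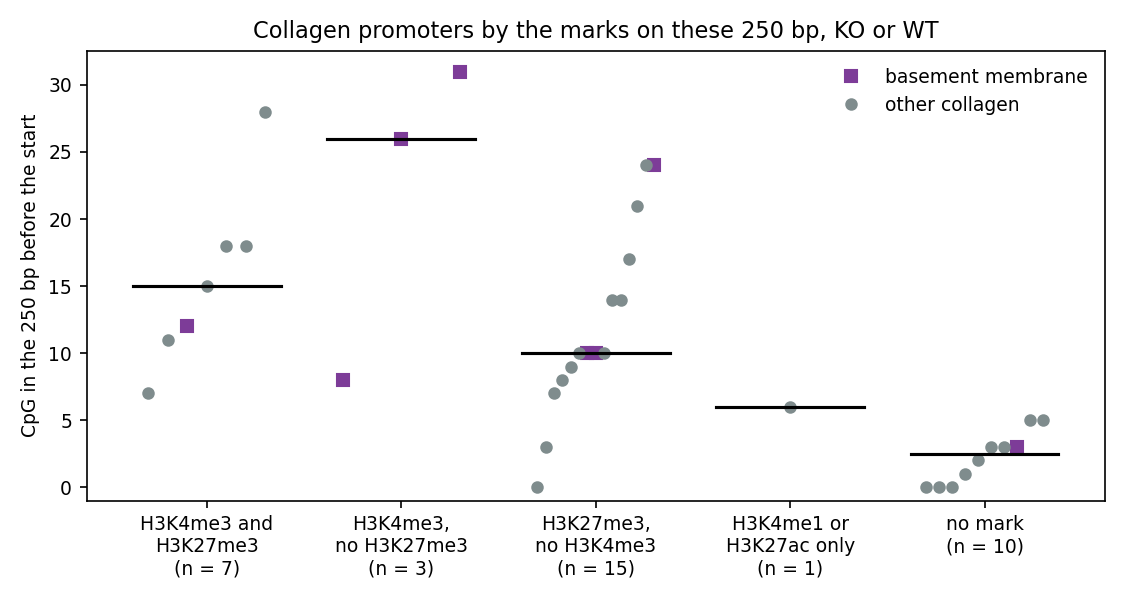
CpG sites in the 250 bp before each annotated start of 33 collagen genes (36 starts), by the marks on those bases in KO or WT; squares are basement membrane collagens, circles others, black lines medians. Starts without a mark lay at 0 to 5 CpG, and those of Col4a1 and Col4a2, with H3K4me3 and no H3K27me3, at 31 and 26.

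Genes that act with collagens were described from 3 lists. Of 16 partners in the basement membrane (laminins, nidogens, perlecan and others), 12 in KO and 12 in WT carried H3K4me3 at an end, against 52.3% of all genes in KO and 46.1% in WT, with median H3K4me1 of 24.38 bp per kb in KO and 20.31 in WT. H3K27me3 at an end was KO-only at 3 of them (18.8%, all genes 8.28%), Hspg2, the perlecan gene, and the laminin genes Lama5 and Lamc3, and WT-only at Nid2, a nidogen gene (all genes 3.43%). H3K27ac was WT-only at the laminin genes Lama2 and Lama3 (12.5%, all genes 5.88%), and H3K4me1 was KO-only at Lamc3 and WT-only at Lama2. Of 30 genes for collagen modification and processing, 19 in KO (63.3%) and 18 in WT (60.0%) carried H3K4me3. At a gene end, H3K4me1 was listed in KO only at 0 (all genes 2.35%) and in WT only at 8 (26.7%, all genes 9.52%), including Adamts14, Bmp1, Colgalt2, Crtap, Loxl3 and P4ha2. H3K27me3 was KO-only at Crtap, Loxl3 and Loxl4 (10.0%, all genes 8.28%), of which Loxl3 and Loxl4 are lysyl oxidase-like cross-linking enzymes. It was WT-only at 1 gene (3.33%, all genes 3.43%). H3K4me3 was KO-only at Loxl4 (3.33%, all genes 6.9%). H3K27ac was WT-only at 3 genes (10.0%, all genes 5.88%), including Adamts3, a procollagen peptidase, and Colgalt2. Of 10 collagen receptors, 4 in KO (40.0%) and 3 in WT (30.0%) carried H3K4me3, against 52.3% of all genes in KO and 46.1% in WT. Over all genes, the KO-only shares were 2.35% for H3K4me1, 2.01% for H3K27ac and 6.9% for H3K4me3, and the WT-only share of H3K27me3 was 3.43%. Ddr2, a receptor kinase for fibrillar collagen, carried H3K27ac and H3K4me3 in KO only, Itga10 and Mrc2 H3K4me1 in KO only, and Itga2 H3K27me3 in WT only.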

How the data were processed

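Per the labels, ACT-seq was made on sorted lung endothelial cells with yeast nuclei as a spike-in. Per the submitters' processing notes, the tools included MACS2 2.1.2.1 and Bowtie2 2.2.6, with Trim Galore 0.4.4, cutadapt 1.14 and deepTools 3.1.1 beside SAMtools. The notes name the builds mm10 and R64. The authors deposited 1 peak list per group of 3 samples, each peak given by chromosome, start and end, without score or other measure. Peak-calling thresholds, pooling and the use of the spike-in are not stated in the labels, and depth is unknown. The protocol also names H3K9me3, which was not analysed here.

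From these positions and widths, peaks were joined to mm10 protein-coding genes with Python 3.11.15, numpy 2.4.6, pandas 2.3.3, scipy 1.17.1 and matplotlib 3.10.9. A locus was the gene with 5000 bp on each side, a gene end 1000 bp either way, a shared peak one with 1 bp or more in a peak of the other genotype, and a distal region merged H3K4me1 more than 1000 bp from every gene end. Length was called different at 2-fold, also where 1 genotype had 0 bp. Overlap counting was tested on simulated lists. With 1 list per group, no p-value was computed, and exact (Clopper-Pearson) 95% intervals cover only counting error, with each peak taken as independent. RefSeq promoters on GRCm38.p6 matched 33 of 42 genes by symbol.

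Named genes were all basement membrane collagens, those with H3K27ac, H3K4me3 or H3K27me3 at an end in 1 genotype only, the 5 largest length differences per mark and direction, the 3 widest shared and genotype-only peaks, any gene without a peak, and up to 8 differing genes of each further list. Col6a1, Col6a3, Col13a1 and Col19a1 fall outside this rule and were named after their values were seen. Members and lists were chosen with earlier results of these data known. Alternatives were peak width, equal list lengths, end window, start alone, flank, peak centre and overlap share.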

Additional observations from a re-analysis of the deposited data

How the results depend on the processing

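Of 131 values recomputed for 33 results under other settings, 78 were counted as unchanged and 53 were not. A peak ratio or share was unchanged if it stayed within the 95% interval of its main value. A count or class difference was unchanged if it stayed within 1.5-fold. Values are KO over WT peak ratios, numbers of genes or regions, shares in percent, and basement membrane minus other collagen medians in bp per kb. With the same number of peaks from each list by width, the H3K4me3 peak ratio was reversed, at 0.696 against 1.739. The H3K27ac ratio was then 0.915 against 0.489. The H3K27me3 ratio also crossed 1, at 0.809 against 1.206, but its main interval included 1. So did that of H3K4me1, whose ratio of 1.022 against 0.993 counted as unchanged. Gene-end counts there were 0 (H3K4me3 KO only), 2 (H3K4me3 WT only) and 1 (H3K27me3 KO only), and class differences 9.85 (H3K27ac WT), 1.35 (H3K4me3 KO) and 4.44 (H3K27me3 KO). Of distal regions, 5 were primed in KO and active in WT, and 4 had H3K4me3 in KO only.

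With peaks of at least 200 bp, the H3K27ac ratio was 0.696, and gene-end counts were 1 (H3K4me1 KO only), 0 (H3K27ac KO only), 3 (H3K4me3 KO only), 4 (H3K27me3 KO only) and 1 (H3K27me3 WT only). Class differences were 2.19 (H3K4me3 KO) and 4.04 (H3K27me3 KO), 2 distal regions were active in KO and primed in WT, and 7 had H3K4me3 in KO only. Shared peaks made up 76.25% (H3K27ac KO), 52.17% (H3K27ac WT) and 50.0% (H3K4me3 KO). With peaks of at least 500 bp, ratios were 1.438 (H3K4me1), 0.667 (H3K27ac) and 1.895 (H3K27me3), and gene-end counts 2 (H3K4me1 WT only), 0 (H3K27ac KO only), 1 (H3K4me3 KO only), 0 (H3K4me3 WT only), 9 (H3K27me3 KO only) and 1 (H3K27me3 WT only). Class differences were 4.82 (H3K4me1 WT), 0 (H3K27ac KO), 4.74 (H3K27ac WT), 0 (H3K4me3, both genotypes) and 0 (H3K27me3 WT).

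With ends widened to 2500 bp, H3K27ac KO only counted 2 and H3K27me3 WT only 1. At the annotated start alone, the counts were 2 (H3K4me1 WT only), 0 (H3K27ac KO only), 1 (H3K27me3 KO only) and 1 (H3K27me3 WT only). Without flanks, class differences were 2.66 (H3K4me3 KO), 0 (H3K4me3 WT) and 0.29 (H3K27me3 WT). Without Col4a1 and Col4a2, a setting chosen after seeing the data, they were 10.56 (H3K4me1 WT), 1.71 (H3K4me3 KO), 0 (H3K4me3 WT), 5.4 (H3K27me3 KO) and 1.25 (H3K27me3 WT). The cause was not tested. No paired analysis was possible because each group has 1 peak list and no value per sample, and for the same reason no replicate could be left out.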
